A study of Mus musculus with 9 samples.

Results

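The genes described here are those that encode the chains of the collagens, the triple-helical proteins of the extracellular matrix. They were chosen by name alone: each gene identifier that the GENCODE M21 annotation marks as protein-coding, and whose symbol is Col, a number, the letter a and a number, was a member. This gave 44 genes among 55487 identifiers, of which 21974 are protein-coding. The rule itself was set with earlier results of these data known. RNA had been sequenced from isolated mouse cardiomyocytes, the contractile cells of the heart, in 3 groups of 3 libraries. The overexpression group received LncFirre, a long noncoding RNA, from an AAV9 vector, a recombinant adeno-associated virus that enters heart muscle well. The negative control received the AAV9 control vector (VC), and the blank control is described only as a blank. The sources used here do not give the strain, sex, age, vector dose, vector promoter or time after infection. They call the libraries biological replicates without naming separate animals or cultures, so each p-value rests on a spread between libraries that could be technical.

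Each collagen molecule is a trimer of chains that are modified in the endoplasmic reticulum, folded, secreted, trimmed and cross-linked outside the cell. Fibrillar collagens bear tension, type IV collagens form the sheet of the basement membrane, and smaller classes sit on fibrils, in beaded filaments or in the cell membrane. In the heart the fibrillar chains come mainly from fibroblasts, while type IV collagen surrounds every cardiomyocyte and capillary.

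Each library held 15591542 to 22697016 counts assigned to genes. Firre itself stood at 62.8, 69.6 and 62.5 CPM (reads of a gene relative to the depth of its library, here with TMM factors) in the overexpression libraries, against 32.5, 34.4 and 32.7 in the negative control and 34.0, 37.1 and 30.2 in the blank control, so every overexpression library lay above every control library. The 12 cardiomyocyte markers, which include Myh6, Tnnt2 and Ttn, summed to 59706 to 62818 CPM in the overexpression libraries, against 37909 to 40916 in the negative control and 38467 to 40005 in the blank control. All 12 rose over the negative control (edgeR, adjusted p under 0.05), where 27.5% of all tested genes rose and 28.4% fell. The 12 fibroblast markers other than collagens summed to 1249 to 1374 CPM in the overexpression libraries, against 2167 to 2309.8 in the negative control and 2083 to 2305 in the blank control, and 11 of them fell over the negative control. Endothelial markers summed to 374 to 384 CPM in the overexpression libraries, against 944 to 954 in the negative control and 987 to 1037 in the blank control, and 10 of 10 fell. Mural markers summed to 1527 to 1672 CPM in the overexpression libraries, against 2949 to 3334 in the negative control and 3162 to 3469 in the blank control, and 9 of 10 fell while 1 rose. Epicardial markers, of which 7 of 7 fell, summed to 101 to 106 CPM in the overexpression libraries, against 289 to 307 in the negative control and 271 to 289.5 in the blank control. Macrophage markers, of which 8 of 8 fell and C1qa was at 0 with overexpression, summed to 11.5 to 12.6 CPM in the overexpression libraries, against 66.5 to 72.1 in the negative control and 83.8 to 99.1 in the blank control. Fewer cells of a type and less RNA per cell cannot be told apart in bulk RNA, and the part of these markers in the collagen results was not tested.

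Promoter windows of 300 bases, from 250 before to 50 after the RefSeq start on build GRCm38.p6, were at hand for 35 of the 44 genes. They were searched on both strands for the TATA box TATAAA, the CCAAT box, the GC box GGGCGG and the AP-1 site TGANTCA. Among 38 collagen windows, GGGCGG was present in 60.5%, against 35.7% of all 32851 windows. CCAAT was present in 34.2%, against 37.4%. TATAAA was present in 13.2%, against 13.6%, and TGANTCA in 2.63%, against 7.81%. The median GC content was 59.8% in collagen windows and 52.7% in all windows. A match is a description of the letters and not a bound site.

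Windows of 6 genes are shown because their transcripts carry the contrasts below: the type IV pair Col4a1 and Col4a2, which start back to back, the fibrillar genes Col1a2 and Col3a1, and Col4a5 and Col11a2, which went the other way. Capitals mark matches to any of the searched motifs, and each sequence reads along its gene. The last 78 bases of the Col4a2 window are the reverse complement of the last 78 of the Col4a1 window (chr8:11312777-11312854), and each of these ends carries the same GC box.
Col4a1: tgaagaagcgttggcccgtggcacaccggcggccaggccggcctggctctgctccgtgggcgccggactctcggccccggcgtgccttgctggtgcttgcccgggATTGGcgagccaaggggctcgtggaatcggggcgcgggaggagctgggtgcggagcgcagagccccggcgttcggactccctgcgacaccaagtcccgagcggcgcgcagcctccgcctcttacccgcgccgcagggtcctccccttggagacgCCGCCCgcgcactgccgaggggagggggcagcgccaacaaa
Col4a2: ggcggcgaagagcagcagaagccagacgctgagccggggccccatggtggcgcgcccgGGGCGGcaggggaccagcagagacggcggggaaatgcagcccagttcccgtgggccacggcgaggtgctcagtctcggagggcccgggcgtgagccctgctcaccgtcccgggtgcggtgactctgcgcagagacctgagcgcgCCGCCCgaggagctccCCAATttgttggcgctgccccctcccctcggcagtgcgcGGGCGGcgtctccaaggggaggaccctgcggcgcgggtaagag
Col1a2: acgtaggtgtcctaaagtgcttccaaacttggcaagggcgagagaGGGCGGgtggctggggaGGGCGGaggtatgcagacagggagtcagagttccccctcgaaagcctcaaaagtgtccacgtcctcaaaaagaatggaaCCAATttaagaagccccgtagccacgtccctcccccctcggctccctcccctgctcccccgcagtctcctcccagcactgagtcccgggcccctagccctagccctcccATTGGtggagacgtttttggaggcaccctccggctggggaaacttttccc
Col3a1: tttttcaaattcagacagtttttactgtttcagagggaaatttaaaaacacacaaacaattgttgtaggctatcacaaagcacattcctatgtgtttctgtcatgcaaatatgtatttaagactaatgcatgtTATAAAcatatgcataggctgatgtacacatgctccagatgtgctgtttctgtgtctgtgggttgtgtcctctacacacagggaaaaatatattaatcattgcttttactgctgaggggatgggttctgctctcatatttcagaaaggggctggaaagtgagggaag
Col4a5: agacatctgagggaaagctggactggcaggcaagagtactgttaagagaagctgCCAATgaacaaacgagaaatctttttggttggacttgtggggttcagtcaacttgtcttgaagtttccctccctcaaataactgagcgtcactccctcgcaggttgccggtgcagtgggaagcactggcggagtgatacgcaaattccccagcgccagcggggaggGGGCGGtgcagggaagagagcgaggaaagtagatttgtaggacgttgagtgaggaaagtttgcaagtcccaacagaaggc
Col11a2: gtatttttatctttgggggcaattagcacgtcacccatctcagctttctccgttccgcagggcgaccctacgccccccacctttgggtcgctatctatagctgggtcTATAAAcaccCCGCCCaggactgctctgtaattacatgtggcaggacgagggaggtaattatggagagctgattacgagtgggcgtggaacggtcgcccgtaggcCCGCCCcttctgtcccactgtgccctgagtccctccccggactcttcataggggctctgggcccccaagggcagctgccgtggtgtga
These lie at chr8:11312777-11313076, minus strand (Col4a1), chr8:11312555-11312854, plus strand (Col4a2), chr6:4505368-4505667, plus strand (Col1a2), chr1:45311288-45311587, plus strand (Col3a1), chrX:141475169-141475468, plus strand (Col4a5) and chr17:34038888-34039187, plus strand (Col11a2). The RefSeq starts can differ from the GENCODE M21 gene starts. The Col1a2 window lies inside its GENCODE gene (start chr6:4504814), and the Col11a2 window lies wholly before its GENCODE start (chr17:34039437). Col1a2 and Col4a5 held both CCAAT and GGGCGG, Col11a2 held TATAAA and GGGCGG, and Col3a1 held only TATAAA.

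Collagen transcripts as a whole took a smaller part of the RNA with LncFirre overexpression. Their share of assigned counts was 1.10, 1.20 and 1.16% in the overexpression libraries, against 2.15, 2.06 and 2.12% in the negative control and 2.0, 2.02 and 2.03% in the blank control. The overexpression libraries were all below all control libraries, and each negative control library lay above each blank control library. The means were 1.15% ± 0.0490 with overexpression, 2.11% ± 0.0469 in the negative control and 2.02% ± 0.0166 in the blank control (SD, n = 3 each). For each of the 3 comparisons between groups a two-sided exact permutation test gave p = 0.1, the smallest value that 3 against 3 libraries allow. Overexpression against the 6 control libraries together gave an exact p = 0.0238, the smallest of 84 splits, a comparison added after the values had been seen. Mitochondrial genes took 8.07, 7.07 and 7.80% of assigned counts in the overexpression libraries, against 5.89, 6.62 and 6.06% in the negative control and 6.80, 6.47 and 6.23% in the blank control. The 10 most abundant genes took 12.4, 11.7 and 12.1% in the overexpression libraries, against 9.42, 9.88 and 9.43% in the negative control and 10.2, 9.76 and 9.69% in the blank control. Both shares were higher in every overexpression library than in any control library, and their part in the collagen results was not tested.

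**Figure D1:**
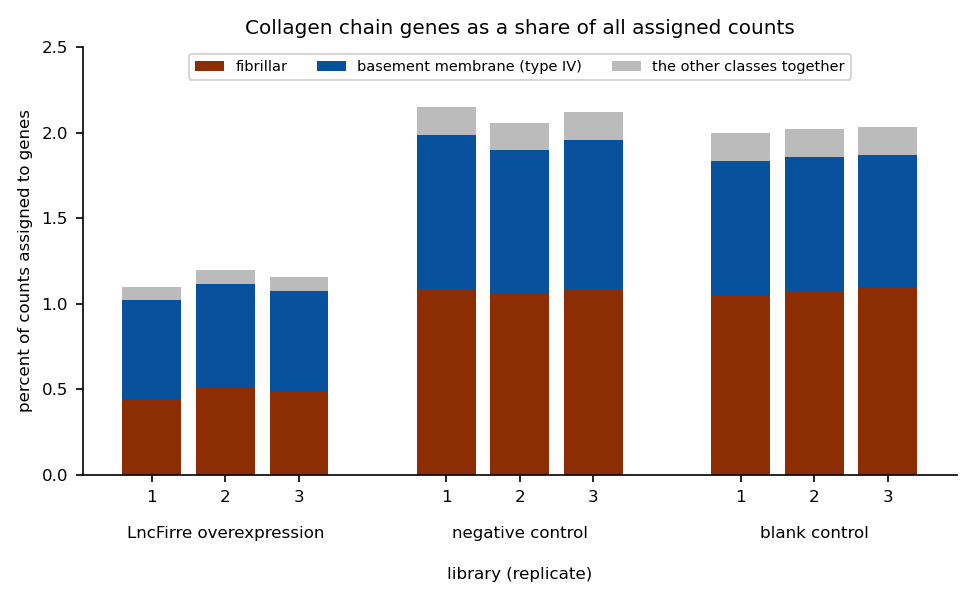
Share of assigned counts (percent, vertical axis) taken by collagen chain genes in each of the 9 libraries (bars, horizontal axis by group and replicate), split into fibrillar, basement membrane and all other classes. The overexpression bars reach 1.10% to 1.20% and the control bars 2.0% to 2.15%, and the fibrillar segment is the smaller of the coloured segments only in the overexpression bars.

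Within the collagen counts, type IV chains outweighed fibrillar chains with overexpression and not in the controls. Fibrillar chains took 40.6, 42.2 and 42.4% of collagen counts in the overexpression libraries, against 50.4, 51.4 and 51.1% in the negative control and 52.5, 53.1 and 53.9% in the blank control. Type IV chains took 52.3, 50.7 and 50.5% in the overexpression libraries, against 41.9, 40.8 and 41.3% in the negative control and 39.2, 38.8 and 38.2% in the blank control. Type IV counts thus exceeded fibrillar counts in each overexpression library and were fewer in each control library. The negative and blank control did not overlap in either share, and each share gave an exact permutation p = 0.1 between them. Against the 6 controls together, a comparison added after the values had been seen, both shares gave an exact p = 0.0238. This became 0.0536 after Benjamini-Hochberg adjustment over the 9 classes and so missed 0.05. Pooling the controls sets their difference aside. Class shares add to the whole, so they are not independent of each other.

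Per kilobase of transcript, the order of the 4 most abundant chains changed with the group. With overexpression, Col4a1 led at 456 ± 11.8 CPM per kb, followed by Col4a2 at 394 ± 12.5, Col1a1 at 364 ± 23.1 and Col1a2 at 223 ± 18.1 (SD, n = 3). The ranges of Col4a2 and Col1a1 nearly met, and Col1a2 lay clearly lowest. In the negative control, Col1a1 led at 712 ± 28.0, followed by Col4a1 at 679 ± 30.8, Col4a2 at 572 ± 22.2 and Col1a2 at 539 ± 4.45. Here the ranges of Col1a1 and Col4a1 overlapped, and those of Col4a2 and Col1a2 nearly met. In the blank control, Col1a1 stood at 720.2 ± 36.6 and Col4a1 at 607 ± 0.582, with Col1a2 at 538 ± 14.6 and Col4a2 at 518 ± 7.21, whose ranges overlapped. The next chain, Col5a2, averaged 94.7 ± 5.08 CPM per kb with overexpression, 221 ± 0.848 in the negative control and 214 ± 9.34 in the blank control.

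Gene by gene, 36 of the 44 chains passed the low-count filter and were tested in a single edgeR fit, and 23 of them averaged at least 10 CPM over the 9 libraries. Of these 23, 19 fell, 1 rose and 3 did not pass the test in LncFirre overexpression over the negative control (edgeR, adjusted p under 0.05). For comparison, 32.2% of all 9578 genes at this level fell, and their median log2 fold change was 0.00, against -0.97 for the 23 collagen genes. Over the blank control, 19 again fell, 1 rose and 3 did not pass, where 32.6% of all genes at this level fell, and the median was -0.97. Both comparisons share the overexpression libraries and are not independent. Over all 36 tested collagen genes, 26 fell and 2 rose over the negative control, where 28.4% of all tested genes fell and 27.5% rose; 4 of the 26 passed the filter through control libraries only, so the count over the 23 is the one to read. Over the blank control 25 fell and 3 rose, where 28.9% of all tested genes fell and 27.3% rose. The same 4 genes were among these 25, so here too the count over the 23 is the one to read.

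**Figure D2:**
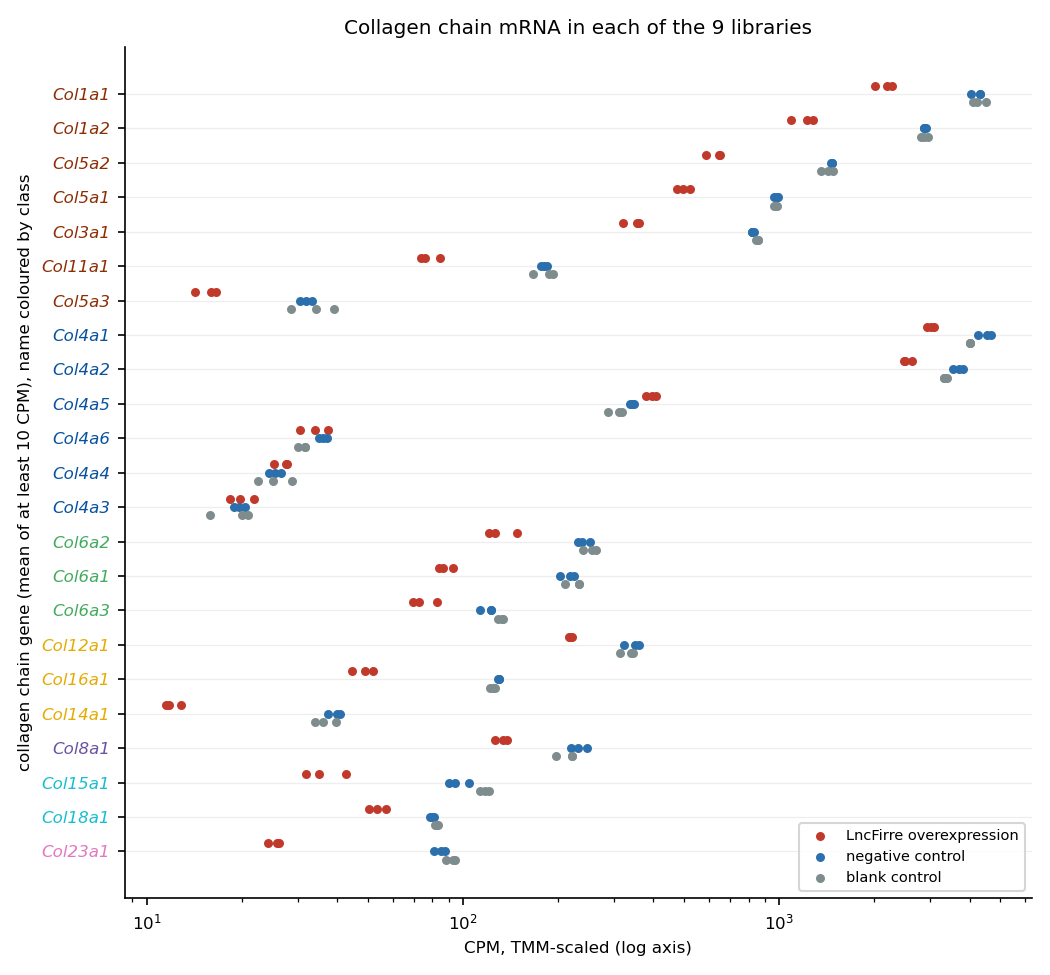
Level of each collagen chain gene that averaged 10 CPM or more, in each library (horizontal axis, TMM-scaled CPM on a log scale; 3 points per group; gene names down the page, coloured by class). The overexpression points lie left of all control points for 19 genes and right of them for Col4a5. The share of all genes that separate in this way was not counted.

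Of the 10 tested fibrillar genes, 9 fell and 1 rose over the negative control. Col1a1 stood at 2008, 2275 and 2198 CPM in the overexpression libraries, against 4309.8, 4031 and 4327 in the negative control and 4087, 4214 and 4510.5 in the blank control. This gene encodes the chain that makes up most of type I collagen, the main collagen of scar and interstitium. Col1a2 stood at 1088, 1277 and 1221 CPM in the overexpression libraries, against 2912, 2866 and 2877 in the negative control and 2809, 2865 and 2964 in the blank control, and it encodes the partner chain of type I. Col1a1 lies at chr11:94936224-94953042, plus strand and Col1a2 at chr6:4504814-4541544, plus strand (mm10). In both genes the highest overexpression library was far below the lowest control. The log2 fold change over the negative control was -0.97 ± 0.05 (SE; adjusted p = 1.9e-16) for Col1a1 and -1.27 ± 0.05 (SE; adjusted p = 1.8e-19) for Col1a2 in edgeR's quasi-likelihood test. Col3a1 stood at 319.6, 361 and 356 CPM in the overexpression libraries, against 820.2, 819 and 834 in the negative control and 859, 854 and 847 in the blank control. Col3a1, at chr1:45311538-45349706, plus strand, encodes type III collagen, a homotrimer of compliant tissues, and its log2 fold change was -1.25 ± 0.05 (SE; adjusted p = 6.0e-20) by edgeR. Type V chains sit within type I fibrils and set their start and width. Col5a1 stood at 475, 522 and 497 CPM in the overexpression libraries, against 981, 963 and 989 in the negative control and 981, 976 and 960.1 in the blank control. Col5a2 stood at 588, 646 and 648 CPM in the overexpression libraries, against 1459, 1470.5 and 1466 in the negative control and 1474, 1424 and 1351 in the blank control. For both, the overexpression libraries lay below all control libraries, and the ranges of the controls overlapped. Col5a3 stood at 15.9, 16.5 and 14.2 CPM in the overexpression libraries, against 33.4, 30.4 and 32.0 in the negative control and 28.6, 34.2 and 39.1 in the blank control, the lowest of the 3 type V chains. Log2 fold changes were -0.97 ± 0.04 (SE; adjusted p = 6.4e-18) for Col5a1, -1.22 ± 0.05 (SE; adjusted p = 9.6e-20) for Col5a2 and -1.03 ± 0.09 (SE; adjusted p = 1.5e-10) for Col5a3 (edgeR). Col11a1 stood at 73.5, 75.7 and 84.7 CPM in the overexpression libraries, against 181, 177 and 185 in the negative control and 192, 187 and 166 in the blank control. Col11a1 encodes a chain of type XI collagen, best known from cartilage, and its log2 fold change was -1.21 ± 0.06 (SE; adjusted p = 5.5e-17) by edgeR. Over the 7 fibrillar genes of at least 10 CPM, the log2 fold change ran from -1.27 to -0.97 over the negative control and from -1.30 to -0.97 over the blank control. The noncollagen fibroblast markers moved the same way, with a median log2 fold change of -0.85 over the negative control, and their part in these values was not tested.

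The 3 remaining fibrillar genes were scarce. Col27a1 stood at 1.92, 1.53 and 2.30 CPM in the overexpression libraries, against 9.19, 5.97 and 6.93 in the negative control and 6.44, 5.89 and 6.85 in the blank control. Col24a1 stood at 0.708, 1.17 and 0.991 CPM in the overexpression libraries, against 1.75, 2.40 and 1.73 in the negative control and 2.81, 2.39 and 1.43 in the blank control. Both encode minor fibrillar chains, and overexpression was below every control library in each. Their log2 fold changes were -1.94 ± 0.19 (SE; adjusted p = 3.6e-10) for Col27a1 and -1.02 ± 0.30 (SE; adjusted p = 0.00459) for Col24a1 (edgeR). Col11a2 stood at 3.13, 3.56 and 2.56 CPM in the overexpression libraries, against 2.26, 2.16 and 1.38 in the negative control and 1.34, 1.85 and 1.03 in the blank control. The overexpression libraries lay above every control library. Col11a2 encodes another type XI chain and was the only fibrillar gene that rose, by 0.68 ± 0.24 (SE; adjusted p = 0.0189) over the negative control and 1.12 ± 0.26 (SE; adjusted p = 5.0e-04) over the blank control on the log2 scale (edgeR). Over the negative control that call was lost without overexpression replicate 2 (0.56, adjusted p = 0.0955), without negative control replicate 3 (0.48, adjusted p = 0.123) and with DESeq2 (adjusted p = 0.0709).

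Of the 6 type IV chains of the basement membrane, 2 fell, 1 rose and 3 did not pass over the negative control. The share that fell, 33.3%, was near the 32.2% of all genes of at least 10 CPM, so the count by itself does not set the class apart. Col4a1 stood at 2937, 3093 and 3021 CPM in the overexpression libraries, against 4667, 4268 and 4535 in the negative control and 4010.0, 4015 and 4018 in the blank control. Col4a2 stood at 2484, 2633 and 2507 CPM in the overexpression libraries, against 3825, 3539 and 3696 in the negative control and 3396, 3314 and 3318 in the blank control. These chains form the common basement membrane trimer, and for both the overexpression libraries were lowest, the blank control came next and the negative control was highest, with no overlap. Log2 fold changes over the negative control were -0.57 ± 0.04 (SE; adjusted p = 1.4e-12) for Col4a1 and -0.54 ± 0.04 (SE; adjusted p = 6.1e-12) for Col4a2, and over the blank control -0.41 ± 0.04 (SE; adjusted p = 1.8e-09) and -0.40 ± 0.04 (SE; adjusted p = 4.1e-09) in the same order (edgeR). The genes lie at chr8:11198423-11312826, minus strand and chr8:11312805-11449287, plus strand (mm10). Their annotated exons overlap by 22 bases on opposite strands, and whether the counting used strand is not stated. Col4a5 stood at 395, 406 and 378 CPM in the overexpression libraries, against 338, 347 and 341 in the negative control and 311, 318 and 287 in the blank control. Here the overexpression libraries were highest, the negative control came next and the blank control was lowest, with no overlap. Col4a5 (chrX:141475385-141689234, plus strand) encodes an X-linked chain that joins either Col4a3 and Col4a4 or Col4a6, and it rose by 0.20 ± 0.05 (SE; adjusted p = 5.9e-04) over the negative control and 0.36 ± 0.05 (SE; adjusted p = 9.3e-08) over the blank control on the log2 scale (edgeR). Its partner genes did not follow. Col4a3 stood at 21.8, 19.7 and 18.3 CPM in the overexpression libraries, against 19.5, 20.5 and 18.9 in the negative control and 20.0, 20.9 and 15.9 in the blank control. Col4a4 stood at 25.3, 27.8 and 27.6 CPM in the overexpression libraries, against 25.5, 26.6 and 24.4 in the negative control and 25.1, 28.8 and 22.4 in the blank control. Col4a6 stood at 34.1, 37.5 and 30.5 CPM in the overexpression libraries, against 35.0, 36.1 and 37.3 in the negative control and 30.2, 31.7 and 31.7 in the blank control. Overexpression and negative control values overlapped for all 3, and log2 fold changes were 0.02 ± 0.10 (SE; adjusted p = 0.851) for Col4a3, 0.08 ± 0.08 (SE; adjusted p = 0.450) for Col4a4 and -0.08 ± 0.07 (SE; adjusted p = 0.341) for Col4a6 (edgeR). Exons of Col4a3 overlap the gene C430014B12Rik on the other strand, which had 93 counts in all libraries together. Endothelial and mural markers had median log2 fold changes of -1.21 and -1.20 over the negative control, and their part in the type IV values was not tested.

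**Figure D3:**
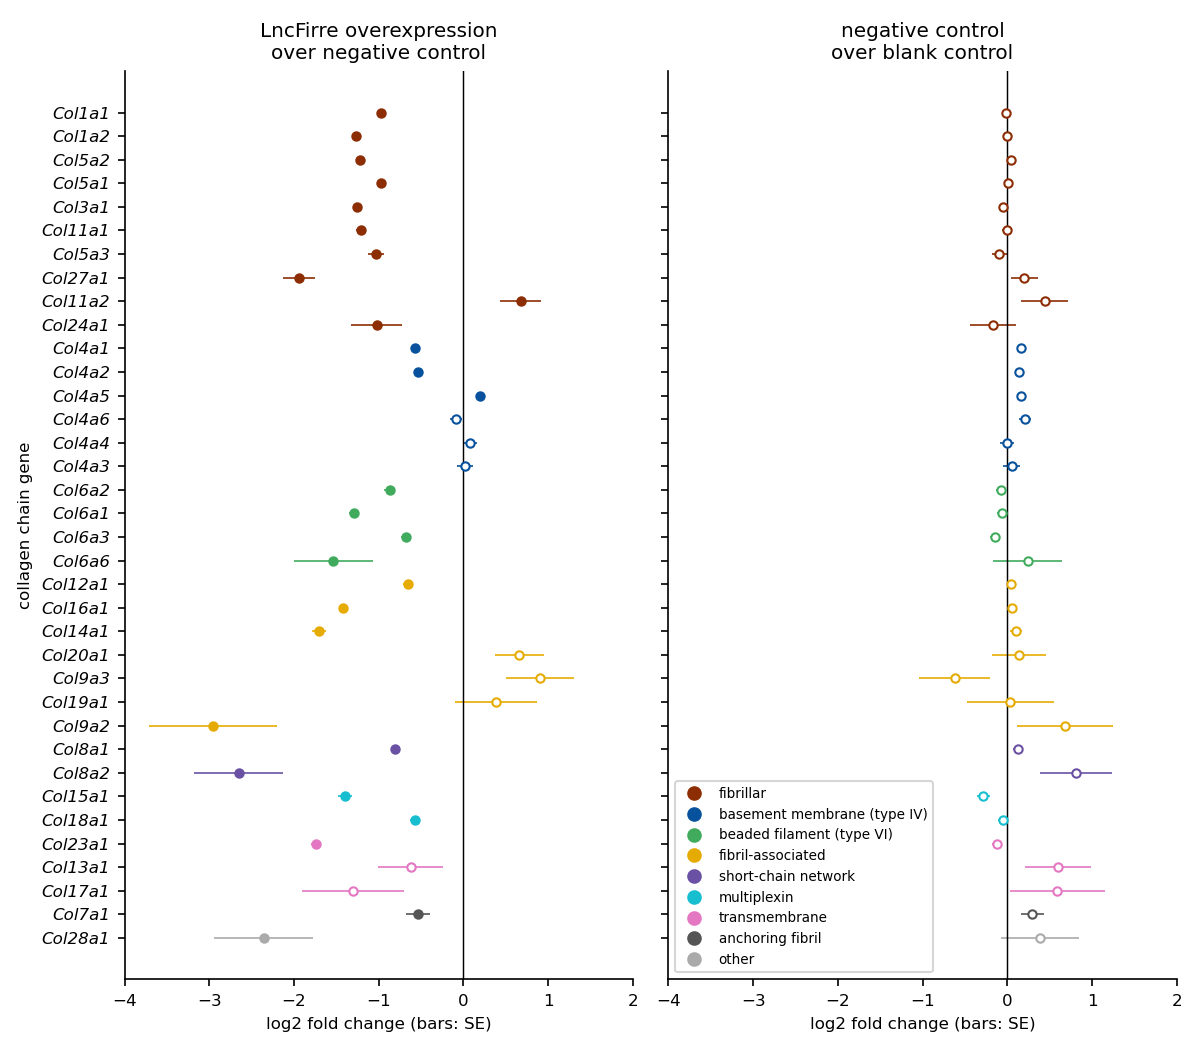
Log2 fold change (horizontal axis; bars, SE from edgeR) of the 36 tested collagen chain genes, coloured by class, for LncFirre overexpression over the negative control (left) and the negative control over the blank control (right); filled points have an adjusted p under 0.05. On the left 26 genes are filled below 0 and 2 above it, Col4a5 and Col11a2; on the right no point is filled.

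All 3 major chains of type VI collagen, which forms beaded filaments next to cells, fell. Col6a1 stood at 83.9, 92.7 and 86.3 CPM in the overexpression libraries, against 218, 225 and 203 in the negative control and 232, 209.5 and 233 in the blank control. Col6a2 stood at 121, 148 and 126 CPM in the overexpression libraries, against 251, 238 and 231 in the negative control and 256, 239 and 264 in the blank control. Col6a3 stood at 69.5, 82.5 and 72.4 CPM in the overexpression libraries, against 123, 123 and 113 in the negative control and 133, 133 and 129 in the blank control. In each of them the overexpression libraries lay below all control libraries. Log2 fold changes over the negative control were -1.29 ± 0.06 (SE; adjusted p = 1.9e-18) for Col6a1, -0.87 ± 0.06 (SE; adjusted p = 4.4e-12) for Col6a2 and -0.67 ± 0.06 (SE; adjusted p = 3.0e-11) for Col6a3, and over the blank control -1.36 ± 0.06, -0.94 ± 0.06 and -0.82 ± 0.06 in the same order (edgeR). Col6a1 thus had the largest change of the 3.

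Fibril-associated collagens decorate fibril surfaces. Col12a1 stood at 218, 216 and 221 CPM in the overexpression libraries, against 359.9, 324 and 350.2 in the negative control and 339.8, 344 and 315 in the blank control. Col14a1 stood at 11.5, 12.8 and 11.8 CPM in the overexpression libraries, against 37.3, 40.9 and 40.0 in the negative control and 36.0, 39.7 and 34.1 in the blank control. Col16a1 stood at 44.6, 49.0 and 51.9 CPM in the overexpression libraries, against 129.9, 129.8 and 129 in the negative control and 124, 122 and 126 in the blank control. Each was lower in all overexpression libraries than in any control library. Log2 fold changes were -0.66 ± 0.05 (SE; adjusted p = 8.0e-13) for Col12a1, -1.71 ± 0.08 (SE; adjusted p = 3.0e-17) for Col14a1 and -1.42 ± 0.06 (SE; adjusted p = 2.7e-19) for Col16a1 (edgeR), so that Col14a1 was down 3.27-fold and Col12a1 1.58-fold. Col20a1 stood at 1.72, 2.44 and 1.72 CPM in the overexpression libraries, against 1.75, 1.03 and 0.969 in the negative control and 1.02, 1.12 and 1.26 in the blank control. The overexpression libraries overlapped the negative control, through its replicate 1, and not the blank control. Col20a1 missed the threshold over the negative control, at 0.66 ± 0.29 (SE; adjusted p = 0.0540), and passed it over the blank control, at 0.79 ± 0.30 (SE; adjusted p = 0.0255), on the log2 scale by edgeR. The call over the blank control was lost without overexpression replicate 2 (adjusted p = 0.134), without blank control replicate 1 or 2 (adjusted p = 0.0642 and 0.0592) and with DESeq2 (adjusted p = 0.0790). Its exons overlap BX649560.1 on the same strand, so its counts are uncertain. Col9a3 and Col19a1 had 0.91 ± 0.40 and 0.38 ± 0.48 on the log2 scale and were not called (edgeR adjusted p = 0.0543 and 0.518). Exons of Col9a3 overlap 234 bases of Tcfl5 on the other strand, a gene with 196 counts in all libraries together. Whether the counting used strand is not stated, so the Col9a3 counts are uncertain too.

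Both multiplexins, proteoglycan-like collagens of basement membrane zones, fell, but to different degrees. Col15a1 stood at 31.9, 42.5 and 34.9 CPM in the overexpression libraries, against 105, 90.2 and 94.4 in the negative control and 117, 114 and 121 in the blank control. Col18a1 stood at 50.6, 57.0 and 53.5 CPM in the overexpression libraries, against 81.0, 78.6 and 79.6 in the negative control and 82.5, 83.2 and 81.6 in the blank control. Overexpression values were below all control values in both, and Col15a1 was also lower in each negative control library than in each blank control library. Log2 fold changes over the negative control were -1.40 ± 0.08 (SE; adjusted p = 1.5e-11) for Col15a1 and -0.57 ± 0.06 (SE; adjusted p = 6.1e-10) for Col18a1, the source of endostatin (edgeR). Col8a1 stood at 134, 126 and 138 CPM in the overexpression libraries, against 219.6, 230.4 and 246 in the negative control and 221, 222 and 197 in the blank control. Col8a1 encodes a short-chain network collagen of vessel walls, and its log2 fold change was -0.81 ± 0.05 (SE; adjusted p = 1.3e-13) by edgeR. Col23a1 stood at 24.2, 25.7 and 26.1 CPM in the overexpression libraries, against 87.7, 80.7 and 85.1 in the negative control and 94.6, 93.2 and 88.2 in the blank control. This transmembrane collagen was 3.33-fold lower than in the negative control, the largest change among the 23 genes of at least 10 CPM, with a log2 fold change of -1.74 ± 0.06 (SE; adjusted p = 2.4e-20) by edgeR.

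Among the other scarce genes, Col7a1, the anchoring fibril collagen of epithelia, fell over the negative control. Col7a1 stood at 5.46, 6.27 and 5.17 CPM in the overexpression libraries, against 9.29, 7.90 and 7.39 in the negative control and 6.89, 6.62 and 6.51 in the blank control. The groups did not overlap, and the log2 fold change was -0.54 ± 0.14 (SE; adjusted p = 0.00136) over the negative control but -0.24 ± 0.14 (SE; adjusted p = 0.153) over the blank control, which did not pass (edgeR). Col6a6, Col8a2, Col9a2 and Col28a1 reached the filter's 0.509 CPM in no overexpression library, so they were tested only because control libraries were higher, and their direction was bound to be downward. Their mean levels were 0.326, 0.186, 0.0643 and 0.111 CPM with overexpression, against 0.957, 1.17, 0.555 and 0.611 CPM in the negative control. The transmembrane collagens Col13a1 and Col17a1 had -0.62 ± 0.38 and -1.30 ± 0.60 on the log2 scale and did not pass (edgeR adjusted p = 0.170 and 0.0675). Without overexpression replicate 1, or without negative control replicate 2, Col17a1 passed, at log2 fold changes of -2.98 and -1.57 (edgeR adjusted p = 0.00223 and 0.0449). Over the blank control it was -0.71 ± 0.66, and -2.38 without overexpression replicate 1 (edgeR adjusted p = 0.374 and 0.0206).

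Col2a1, Col6a4, Col6a5, Col9a1, Col10a1, Col22a1, Col25a1 and Col26a1 did not pass the filter and were not tested. Each had 10 to 58 counts over all 9 libraries. Col2a1 and Col10a1, the collagens of cartilage and of its hypertrophic zone, were among them. Col9a1 had 3 counts in the overexpression group, against 17 in the negative control and 29 in the blank control. Its depth-scaled ratio of overexpression to negative control was 0.174 (exact 95% interval 0.0327 to 0.603, counting error only). Col25a1, a transmembrane collagen of neurons, had 12 counts with overexpression, 2 in the negative control and 0 in the blank control. With the blank control set to a floor of 3 counts, its depth-scaled ratio was 3.52, without allowance for counting error in the 12 counts. Col6a4 had 0 counts with overexpression and 7 in the negative control, 2.36-fold lower with overexpression set to the same floor, again without counting error. Gaps of this size also arose between the controls: Col26a1 had 20 counts in the negative control and 5 in the blank control. Its depth-scaled ratio there was 3.56 (exact 95% interval 1.30 to 12.1, counting error only).

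Ratios of CPM between chains were compared for 10 pairs. In 8 pairs the overexpression libraries lay outside the range of all control libraries, and in Col4a1 to Col4a2 and Col4a3 to Col4a4 they did not. Ratios of other gene pairs were not compared, so how often such a gap arises outside the collagens is not known. Among single genes, 28.4% of all tested genes fell and 27.5% rose over the negative control in edgeR. That is another measure and gives no baseline for the ratios. The Col15a1 to Col18a1 ratio was 0.631, 0.746 and 0.652 in the overexpression libraries, against 1.29, 1.15 and 1.19 in the negative control and 1.42, 1.36 and 1.48 in the blank control. The Col6a1 to Col6a3 ratio was 1.21, 1.12 and 1.19 in the overexpression libraries, against 1.78, 1.83 and 1.79 in the negative control and 1.74, 1.57 and 1.80 in the blank control. The Col1a1 to Col1a2 ratio was 1.85, 1.78 and 1.80 in the overexpression libraries, against 1.48, 1.41 and 1.504 in the negative control and 1.45, 1.47 and 1.52 in the blank control. In each of these the overexpression libraries stood apart, low for the first and second pair and high for type I. Between overexpression and the 6 controls together, 8 of 10 ratios differed at a two-sided exact permutation p = 0.0238, the smallest of 84 splits. This is 0.0298 after Benjamini-Hochberg adjustment over the 10 pairs. Pooling the controls sets their difference aside, and Col15a1 to Col18a1 did not overlap between the controls (exact permutation p = 0.1). Some pairs share Col1a1, Col5a1 or Col6a1, so the ratios are not independent of each other. With 3 against 3 libraries no p below 0.1 can be reached. Geometric means, with the SD of log2 ratios over 3 overexpression and 6 control libraries, were as follows for the other pairs. The Col1a1 to Col3a1 ratio averaged 6.25 with overexpression (log2 2.64 ± 0.01), against 5.06 in the controls (log2 2.34 ± 0.06). Col5a1 to Col5a2 averaged 0.794 with overexpression (log2 -0.33 ± 0.04), against 0.677 in the controls (log2 -0.56 ± 0.04). Col6a1 to Col6a2 averaged 0.669 with overexpression (log2 -0.58 ± 0.08), against 0.891 in the controls (log2 -0.17 ± 0.04). Col11a1 fell further than Col5a1, with a ratio of 0.156 with overexpression (log2 -2.68 ± 0.12), against 0.186 in the controls (log2 -2.43 ± 0.06). Col4a5 to Col4a6, whose starts lie 1309 bases apart, averaged 11.6 with overexpression (log2 3.53 ± 0.10), against 9.63 in the controls (log2 3.27 ± 0.07). The Col4a1 to Col4a2 ratio was nearly flat across libraries, at 1.18, 1.17 and 1.20 in the overexpression libraries, against 1.22, 1.21 and 1.23 in the negative control and 1.18, 1.21 and 1.21 in the blank control. For this divergent pair the mean log2 ratio with overexpression minus that of the controls was -0.03 (exact p = 0.0952, adjusted 0.106). For Col4a3 to Col4a4, whose starts also adjoin, it was -0.03 (exact p = 0.762).

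**Figure D4:**
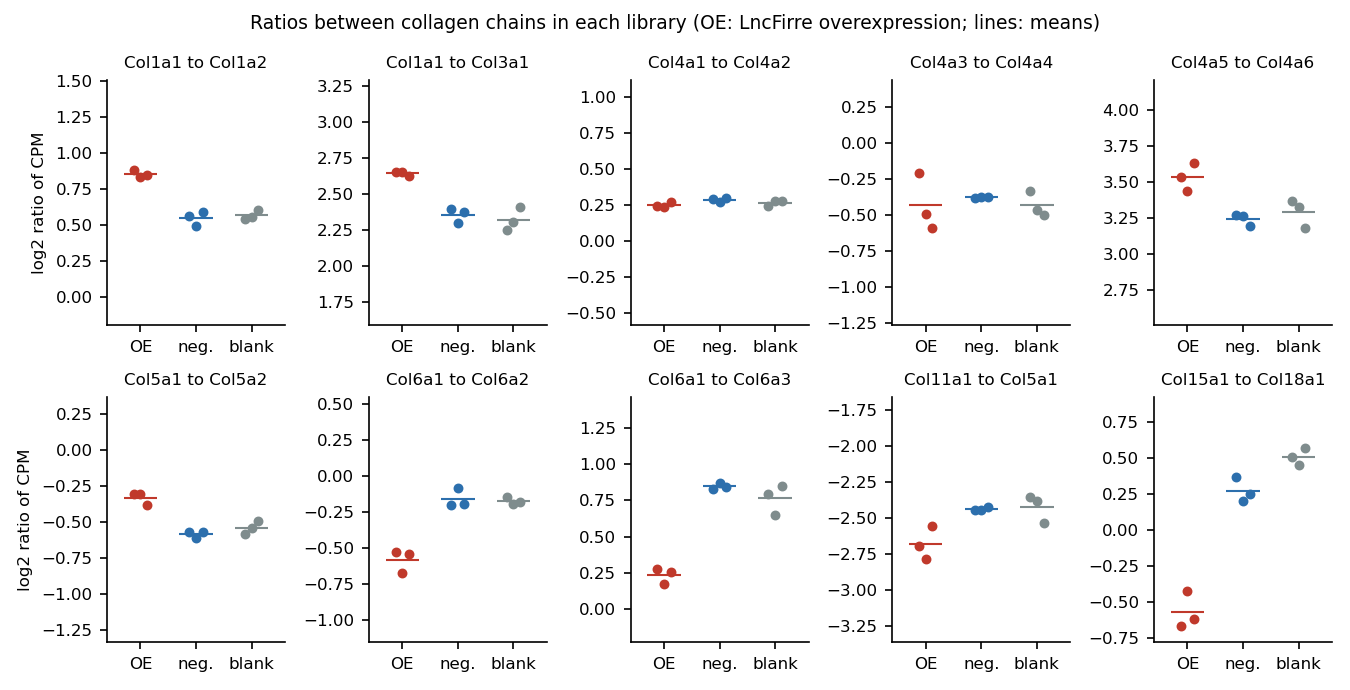
Log2 ratio of CPM (vertical axis, the same span of values in each panel) between the chains of 10 pairs in each library (points; OE is LncFirre overexpression, then negative and blank control) with group means (lines). The overexpression points stand apart from all 6 control points in 8 panels, and do not in Col4a1 to Col4a2 and Col4a3 to Col4a4.

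Between the controls, edgeR called no collagen gene. For the negative control over the blank control, 0 of the 36 tested genes passed in edgeR, where 0.0576% of all tested genes passed in either direction. An unadjusted p under 0.05 was found for 9 of the 36, a larger share than the 8.51% of all tested genes. Of the 6 type IV chains, 4 were among the 9. Col4a6 was one, at 0.21 ± 0.07 (SE; edgeR unadjusted p = 0.0083, adjusted p = 0.408) on the log2 scale, with no overlap between the controls. DESeq2 called 4 genes, Col4a1, Col4a2 and Col4a5 as higher in the negative control and Col15a1 as lower. In edgeR the log2 difference, negative control over blank control, was 0.16 ± 0.04 (SE; adjusted p = 0.212) for Col4a1, 0.14 ± 0.04 (SE; adjusted p = 0.301) for Col4a2, 0.16 ± 0.05 (SE; adjusted p = 0.241) for Col4a5 and -0.28 ± 0.08 (SE; adjusted p = 0.242) for Col15a1. Without the low-count filter, edgeR called Col4a1 (adjusted p = 0.0209) and Col15a1 (adjusted p = 0.00220). For Col4a5 the difference between the controls was close in size to its rise over the negative control, 0.20 ± 0.05 on the log2 scale. The fibrillar genes of at least 10 CPM ran from -0.09 to 0.05 between the controls.

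Genes that make, process and bind collagen were counted from the same fit in 6 lists of known function, with levels as mean ± SD CPM (n = 3 each) and log2 fold changes over the negative control ± SE from edgeR in parentheses. Of 21 tested genes for modification, folding and export in the endoplasmic reticulum, 16 fell and 0 rose, with a median log2 fold change of -0.26. Fkbp10, a collagen-binding prolyl isomerase, stood at 136 ± 2.27 CPM with overexpression, against 240.2 ± 8.18 in the negative control (log2 -0.82 ± 0.05). Plod2, a lysyl hydroxylase for cross-link sites, stood at 87.0 ± 5.40 CPM with overexpression, against 155 ± 11.5 in the negative control (log2 -0.84 ± 0.06). P3h3, of the prolyl hydroxylase family, stood at 24.3 ± 1.67 CPM with overexpression, against 44.2 ± 3.56 in the negative control (log2 -0.86 ± 0.08). The list's median was thus smaller in size than that of the chains, -0.97 over all 36 tested. Of 13 genes for propeptide removal and cross-linking, 9 fell and 2 rose. The cross-linking oxidase Lox stood at 538 ± 25.1 CPM with overexpression, against 1352 ± 11.5 in the negative control (log2 -1.33 ± 0.05). Its relatives Loxl2 and Loxl1 were lower too, Loxl2 at 137 ± 5.17 CPM with overexpression, against 299 ± 27.1 in the negative control (log2 -1.12 ± 0.06) and Loxl1 at 190.3 ± 10.01 CPM with overexpression, against 365 ± 13.3 in the negative control (log2 -0.94 ± 0.05). Loxl3, of the same family, rose to 30.4 ± 3.26 CPM with overexpression, against 15.7 ± 0.877 in the negative control (log2 0.95 ± 0.09), and Pcolce, an enhancer of propeptide cleavage, had 409.6 ± 14.2 CPM with overexpression, against 378 ± 7.27 in the negative control (log2 0.12 ± 0.05). These rising genes were picked out after their values were seen. All genes named from the lists passed at an edgeR adjusted p under 0.05 in the fit of all 9 libraries.

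All 10 tested genes for collagen breakdown, uptake and its inhibitors fell, with a median of -0.95. The membrane collagenase Mmp14 stood at 266 ± 13.3 CPM with overexpression, against 562 ± 16.5 in the negative control (log2 -1.08 ± 0.05). The inhibitor Timp2 stood at 494 ± 8.98 CPM with overexpression, against 882 ± 15.6 in the negative control (log2 -0.84 ± 0.04), and the gelatinase Mmp2 at 94.0 ± 6.39 CPM with overexpression, against 189.9 ± 6.08 in the negative control (log2 -1.02 ± 0.05). Enzymes and inhibitors were thus both lower. Of 8 receptors, 5 fell and 0 rose. The collagen-binding kinase Ddr2 stood at 97.5 ± 4.82 CPM with overexpression, against 171 ± 7.56 in the negative control (log2 -0.81 ± 0.06). The integrin subunit Itga11 stood at 2.35 ± 0.155 CPM with overexpression, against 7.03 ± 0.367 in the negative control (log2 -1.58 ± 0.16), and its partner Itgb1 at 1329 ± 41.5 CPM with overexpression, against 1714 ± 41.9 in the negative control (log2 -0.37 ± 0.04). Of 8 fibril-binding proteoglycans, 5 fell and 2 rose. Podn, the podocan gene, rose to 149.7 ± 4.93 CPM with overexpression, against 58.4 ± 4.76 in the negative control (log2 1.36 ± 0.06). Lumican and decorin did the opposite: Lum stood at 13.2 ± 1.25 CPM with overexpression, against 44.0 ± 3.26 in the negative control (log2 -1.73 ± 0.08) and Dcn at 343 ± 17.9 CPM with overexpression, against 721 ± 32.0 in the negative control (log2 -1.07 ± 0.05). Ogn, seen to rise after its values were known, had 12.7 ± 0.656 CPM with overexpression, against 10.5 ± 0.741 in the negative control (log2 0.27 ± 0.11). Of 12 genes for TGF-beta signals and collagen transcription, 9 fell and 0 rose. The receptor Tgfbr2 stood at 48.0 ± 0.671 CPM with overexpression, against 95.9 ± 4.37 in the negative control (log2 -1.0 ± 0.06). The TGF-beta target Ccn2 stood at 953 ± 25.2 CPM with overexpression, against 1591 ± 76.5 in the negative control (log2 -0.74 ± 0.04), and the collagen gene activator Creb3l1 at 91.4 ± 5.51 CPM with overexpression, against 150.2 ± 7.09 in the negative control (log2 -0.71 ± 0.05). Across the 6 lists 54 genes fell and 4 rose over the negative control, where 28.4% of all tested genes fell. Over the blank control 55 fell and 4 rose, against 0 between the controls. Over the negative control only 2 to 3 list genes rose in each fit that left out 1 library, so not all of the 4 calls held. The smallest of these rises were those of Pcolce and Ogn. Dcn and Lum also stand among the fibroblast markers.

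**Figure D5:**
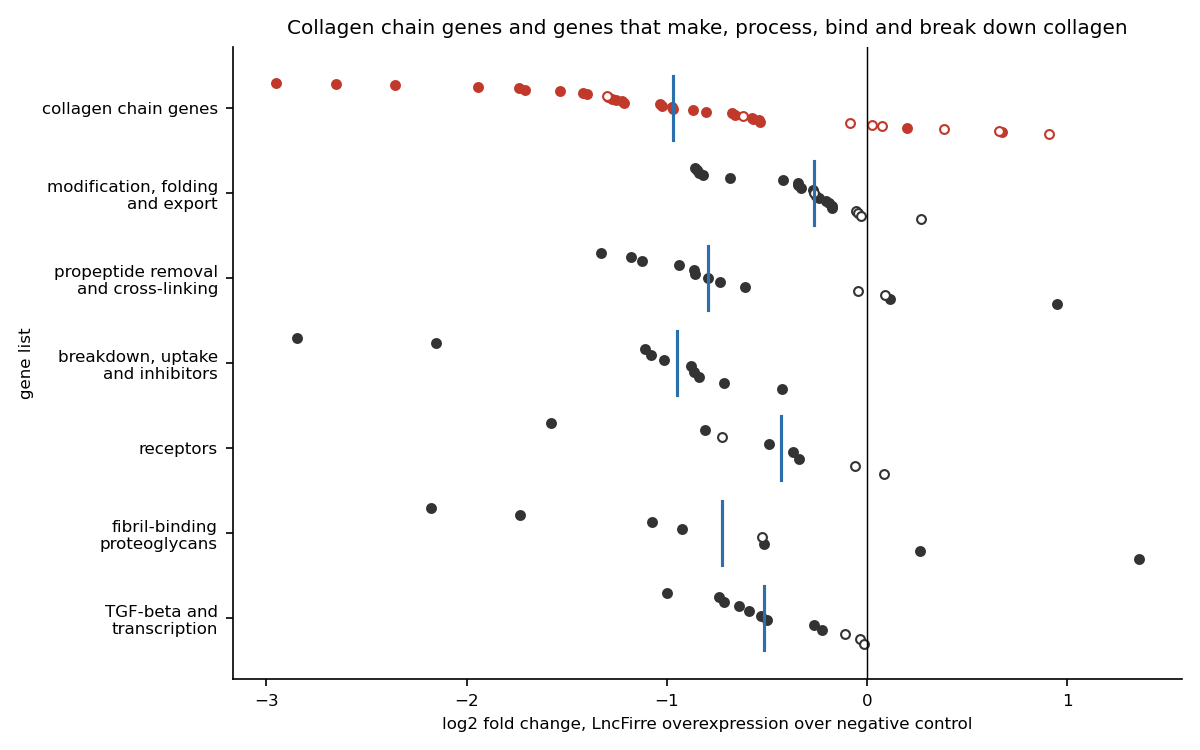
Log2 fold change of LncFirre overexpression over the negative control (horizontal axis) for the collagen chain genes and for 6 lists of genes that make, process, bind and break down collagen (rows); each point is a gene, filled where the edgeR adjusted p is under 0.05, and the blue line is the list's median. The medians run from -0.97 for the chains to -0.26 for modification, folding and export.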

How the data were processed

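RNA of 9 mouse cardiomyocyte libraries (3 groups of 3) was analysed from a deposited table of raw counts per Ensembl gene, which was not normalized. Per the labels' protocols, RNA was extracted with TRIzol, ribosomal RNA was depleted, and directional paired-end libraries were sequenced; the labels' molecule field reads polyA RNA, so the selection is unsettled. Per the submitters' processing notes, FastQC, Trimmomatic, STAR and featureCounts were used with build mm10; settings, versions and the use of strand were not stated. Its 5 closing lines, which hold unassigned reads (16.3% to 17.4% of counts per library), stayed out of library sizes and tests.

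The members, gene lists and alternatives were chosen with earlier results of these data known. Symbols and coordinates came from GENCODE M21, which matched 55227 of 55487 identifiers, and promoters from RefSeq. Columns were assigned to samples through the column names that the sample descriptions give. Replicate pairs differed by more than sampling noise (chi-square per degree of freedom 3.27 to 7.39). All 9 libraries entered a single edgeR 4.0.16 quasi-likelihood fit (R 4.3.3; TMM, filterByExpr with a minimum count of 10, robust, no covariate, 6 residual degrees of freedom), and p-values of 15633 genes were adjusted by Benjamini-Hochberg with a threshold of 0.05. SEs were derived from the F statistic. CPM per kb used the longest protein-coding transcript. Shares and ratios were tested by exact permutation over libraries (SciPy 1.17.1), two-sided. Named genes are all chains, with full values from a mean of 10 CPM, and the 3 members of each list with the smallest p. Of the lists of markers, 2 of 4 tested Schwann cell genes and 3 of 3 tested cartilage genes fell. No sequencing batch is named in the labels, so a batch and the groups cannot be told apart. On simulated counts for LncFirre overexpression against the negative control (15633 genes), the fit called 77.6% of 49 genes with a true log2 change of 0.5, 84% of 75 with a change of 1 and all 73 with a change of 2, beside 11 false calls. Few genes were changed in the simulation, while in the data 28.4% of all tested genes fell and 27.5% rose over the negative control. These rates may therefore not hold for the real fit. Alternatives were other normalizations, filters, DESeq2 1.42.0, fits of only the groups compared, a replicate block and leaving out each library.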

Additional observations from a re-analysis of the deposited data

How the results depend on the processing

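No collagen or list gene reversed its direction past the threshold under any alternative run. The count of 26 lower collagen genes over the negative control stayed within 1.5 times. The count of 2 higher ones was 1 with DESeq2, 4 with a filter of 1 CPM in 3 libraries and 4 with only the 2 groups in the fit, where Col9a3 and Col20a1 joined. The 4 list genes that rose over the negative control were 2 with library totals alone and 2 without a low-count filter. Between the controls, where edgeR called 0 collagen genes, DESeq2 called 3 higher and 1 lower, and edgeR without the filter 1 higher and 1 lower; of list genes, DESeq2 called 1 higher and 1 lower and edgeR without the filter 1 lower. The log2 ratio of the collagen share over the negative control, -0.87, was -0.82 with TMM-effective library sizes and -0.72 without Col1a1, Col1a2 and Col3a1. Over the blank control, -0.81 became -0.76 and -0.62, and between the controls 0.06 became 0.11 without the 3 genes. The causes were not tested.

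Leaving out each library in turn gave 26 to 27 lower and 1 to 3 higher collagen genes over the negative control, 23 to 26 lower and 2 to 4 higher over the blank control, and 0 between the controls. Of list genes, 51 to 54 fell and 2 to 3 rose over the negative control (2 without overexpression replicate 3 and without negative control replicate 2, against 4), and 51 to 54 fell and 3 to 4 rose over the blank control. The collagen share ran from -0.90 to -0.84, from -0.84 to -0.78 and from 0.05 to 0.08 in the 3 comparisons. Pairs of chains whose groups did not overlap numbered 9 to 10 over the negative control, 8 to 9 over the blank control, 8 to 9 over both together and 1 to 4 between the controls, the last with 1 in all libraries, 2 without negative control replicate 2, 3 without blank control replicate 1 and 4 without blank control replicate 3. The chains whose call over the negative control changed under some alternative, Col9a3, Col11a2, Col17a1 and Col20a1, all averaged under 10 CPM; what depth contributed was not tested. Calls of more abundant chains changed in the other comparisons, Col4a6 over the blank control and Col4a1, Col4a2, Col4a5 and Col15a1 between the controls. Over the blank control, calls of the scarce Col6a6, Col8a2, Col9a2, Col17a1 and Col20a1 changed too. With DESeq2, Col6a6 and Col9a2 no longer passed there (adjusted p = 0.0657 and 0.0508). Without overexpression replicate 2, Col8a2 no longer passed there (edgeR adjusted p = 0.0614).

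Deviations of same-numbered libraries from their group means correlated at -0.06 to 0.04, none over 0.1, so no pairing by number was seen. With noise from low-count genes included, this cannot show that same-numbered libraries were prepared apart. With the replicate block, 26 collagen genes fell and 2 rose over the negative control, 25 fell and 3 rose over the blank control and 0 passed between the controls, and of list genes 53 fell and 3 rose, 54 fell and 4 rose, and 0 passed in the same comparisons.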
